A study of Homo sapiens with 8 samples.

Results

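The genes described here encode the enzymes that hydroxylate collagen inside the cell and crosslink it outside: the lysyl oxidases LOX, LOXL1, LOXL2, LOXL3 and LOXL4, the lysyl hydroxylases PLOD1, PLOD2 and PLOD3, and the prolyl 4-hydroxylase alpha subunits P4HA1 and P4HA2. They were taken from the count table by gene symbol, which gave 10 of 58870 genes, each on a single row. The rule uses no measured value, but the set was proposed with earlier results of these data known. RNA was sequenced in 8 libraries of CFPAC-1, a human cell line derived from pancreatic ductal adenocarcinoma. In 4 of them the cells carried an empty vector, and in the other 4 they overexpressed ADRA2A (the adrenoceptor alpha 2A) from a transgene. All cells were otherwise untreated and grown for 72 hours in IMDM with 10% fetal bovine serum and 1% penicillin-streptomycin. The promoter of the transgene, and whether the cells were a clone or a pool, are not given in the sources used here. The p-values below set the group differences against the spread between these libraries. Because the labels do not say that replicates were separate cultures, this spread may be only technical.

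Prolyl 4-hydroxylase works in the endoplasmic reticulum as a tetramer of catalytic alpha subunits and the protein disulfide isomerase P4HB, and the hydroxyproline it makes keeps the collagen triple helix stable at body temperature. Lysyl hydroxylases act in the same compartment and set which lysines can later form stable crosslinks. PLOD2 is the form that hydroxylates the telopeptides of fibrillar collagens, and PLOD3 also adds sugars to hydroxylysine. Lysyl oxidases are copper enzymes that act after secretion and oxidize lysine and hydroxylysine side chains of collagen and elastin, the step that starts crosslinking. The hydroxylases need iron, 2-oxoglutarate, oxygen and ascorbate. LOX, LOXL2, PLOD2, P4HA1 and P4HA2 are textbook targets of hypoxia-inducible factors, which bind the core ACGTG or GCGTG.

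That core is shown here because 3 of these hypoxia targets differed in result: LOX was lower, PLOD2 was higher and P4HA1 showed no clear change. RefSeq promoters (GRCh38.p14) run from 250 bases before to 50 bases after an annotated start. They were matched by symbol for 9 of the 10 genes, all but LOXL2. ACGTG or GCGTG on either strand was present in 48.4% of all 35116 promoters in the table. The share was 60.2% of the 15532 promoters of genes tested here and 58.3% (7 of 12) of the promoters of the 9 genes. By gene, 5 of the 9 held it in at least 1 promoter (LOX, LOXL3, PLOD1, PLOD2 and P4HA1). Overlapping LOX windows share a match, so the 12 promoters are not all separate. The CACGTG palindrome holds ACGTG on both strands and counts as 2 matches. The lines below give 29 bases, 5′ to 3′ on the gene's strand, around matches before the outermost RefSeq start, with the matched letters in capitals.
LOX, 98 bases before the start (chr5:122078341-122078369, minus strand): tccaatcgcattACGTGaacaaatagctg
LOX, 42 bases before the start (chr5:122078285-122078313, minus strand): gtaactttgcaaACGTGccagaaagttta
PLOD2, 200 bases before the start (chr3:146161368-146161396, minus strand): cgtgagcctccaCACGTagccgcaggcag
PLOD2, 146 bases before the start (chr3:146161314-146161342, minus strand): caaacagtccagACGTGgggcccaggagg
P4HA1, 86 bases before the start (chr10:73096936-73096964, minus strand): tgtgatcgagctCACGTagcgagggctgc
The window at the outermost LOX start held 4 matches, that of PLOD2 3, that of PLOD1 2 and that of P4HA1 1, whereas those of LOXL1, LOXL4, PLOD3, P4HA2 and the outermost LOXL3 start held 0. A further LOXL3 start had 1 match. A match describes the letters only, and no binding was measured.

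Libraries held between 14427035 and 17528915 counts. ADRA2A (ENSG00000150594.6) had 0 counts in every empty-vector library and 112, 142, 154 and 172 counts in the libraries labelled ADRA2A, as the labels require. The epithelial markers KRT7, KRT8, KRT18, KRT19, EPCAM, CDH1 and MUC1 were all tested genes, while CFTR had only between 4 and 20 counts. Of these 7, MUC1, KRT19 and EPCAM were higher with ADRA2A (log2 fold changes 0.79, 0.20 and 0.11) and KRT7, CDH1 and KRT18 lower (-0.43, -0.33 and -0.09). The sum over all 8 genes overlapped between the groups, at 11983 to 12556 CPM and 11929 to 12983 CPM. Fibroblast markers, which matter because fibroblasts make most fibrillar collagen, summed over 9 genes to between 3.08 and 3.94 CPM in the empty-vector libraries and between 2.56 and 3.61 CPM in the ADRA2A libraries. CPM are counts scaled to the size of the library, here with TMM factors. Of those 9 genes POSTN was at 0 in all libraries, and THY1, COL3A1 and FAP never exceeded 3 counts. Leukocyte markers (4 genes) summed to between 89.8 and 96.2 CPM and then between 110 and 121 CPM, nearly all of it CD68, with CD3E at 0 and PTPRC at up to 4 counts. Endothelial markers (3 genes) summed to between 0.820 and 1.49 CPM and then between 2.15 and 2.85 CPM, with CDH5 at up to 1 count. PECAM1 accounts for the higher endothelial sum (0.773 and 2.44 CPM; adjusted p = 8.12e-05, edgeR), whereas VWF, at up to 4 counts, was not tested and had 0.235 and 0.0323 CPM. The leukocyte and endothelial sums were higher in the ADRA2A libraries. The part of these marker differences in the results below was not tested.

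Lysyl oxidases were the genes that differed most. LOX fell by 60.7% and LOXL2 by 55.3%, LOXL3 fell less and with weaker support, and LOXL1 and LOXL4 did not pass the test. The hydroxylases moved little: PLOD2 rose by 19.6% and PLOD1 by 11.6%, PLOD3 was 7.87% lower, and neither P4HA1 nor P4HA2 passed. All 10 genes passed the filter on low counts, and 6 had an adjusted p-value under 0.05, with 2 higher and 4 lower (edgeR's quasi-likelihood test, Benjamini-Hochberg over 14785 genes). Over all genes tested 42.7% were called, 21.6% higher and 21.1% lower, so 6 of 10 is not far from the background. The median log2 fold change was -0.05 over the 10 genes and 0.00 over all genes tested. Size set LOX and LOXL2 apart more than the call did: a log2 fold change of -1 or less with a call was reached by these 2 of the 10 and by 2.11% of all genes tested. The count of 10 genes called was 3 without empty-vector replicate 1 and at least 4 in the other fits.

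**Figure D1:**
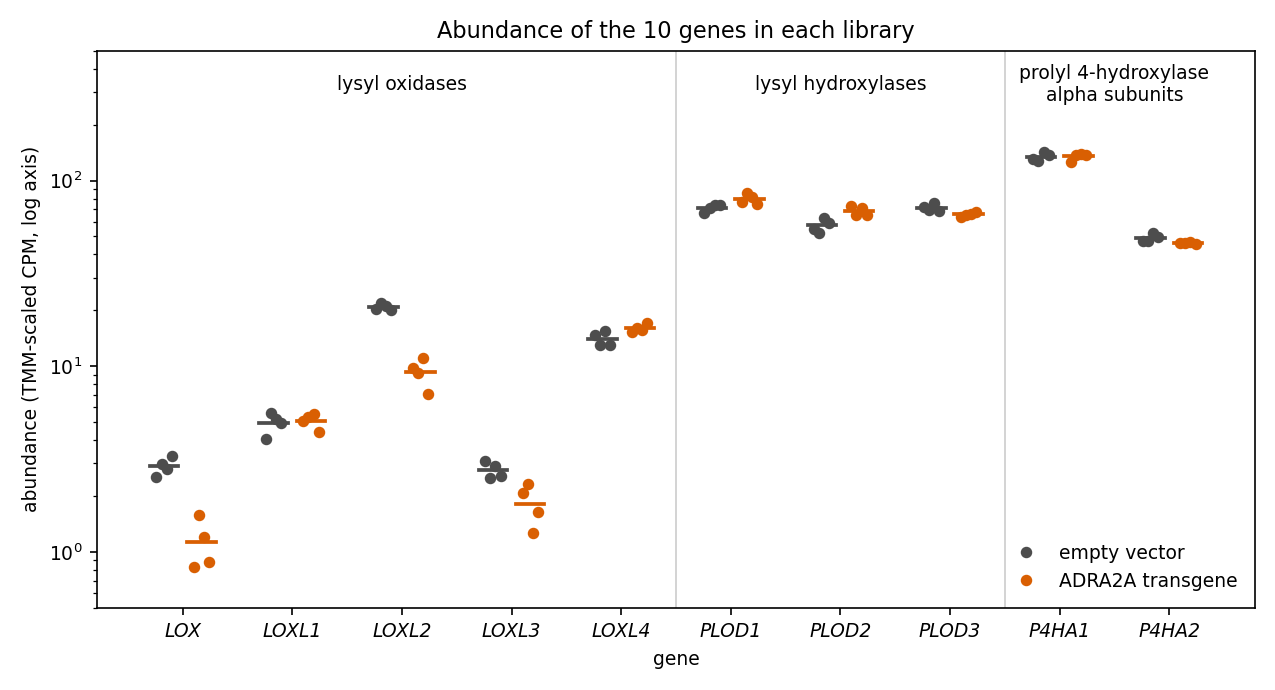
Abundance of each gene in each library, as TMM-scaled CPM on a log axis, with empty-vector libraries in grey and ADRA2A libraries in orange; points are libraries and bars are means of 4. The groups separate widely for LOX and LOXL2, while the points of P4HA1 interleave between 125 and 143 CPM.

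LOX (ENSG00000113083.14; chromosome 5, 122063195 to 122078413, minus strand, GRCh38) encodes the founding lysyl oxidase. It had 2.52, 2.99, 2.79 and 3.27 CPM in empty-vector replicates 1 to 4 and 0.830, 1.58, 1.20 and 0.885 CPM in ADRA2A replicates 1 to 4. Every ADRA2A library lay below every empty-vector library, and within the ADRA2A group replicates 2 and 3 were higher than replicates 1 and 4. The means were 2.89 ± 0.318 and 1.13 ± 0.347 CPM (SD, n = 4 each). On the log2 scale the difference was -1.35 with an SE of 0.25 and a 95% interval from -1.87 to -0.83 (adjusted p = 0.0002, edgeR). These values rest on 43 to 50 counts per empty-vector library and 12 to 24 per ADRA2A library. Counting error alone gives a coefficient of variation of 23.7% at the ADRA2A mean, against 30.8% observed. Only 1.31% of the genes tested had a lower fold change than LOX.

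LOXL2 (ENSG00000134013.15; chromosome 8, 23296897 to 23425328, minus strand) encodes a lysyl oxidase with scavenger receptor domains that acts on basement membrane collagen IV among other substrates. Its levels were 20.4, 21.9, 21.0 and 19.96 CPM in the empty-vector libraries and 9.76, 9.24, 11.1 and 7.08 CPM in the ADRA2A libraries. The groups were far apart, with ADRA2A replicate 4 the lowest of all. Its mean was 20.8 ± 0.814 and then 9.28 ± 1.65 CPM (SD, n = 4 each). This is a difference of -1.16 on the log2 scale, with an SE of 0.10 and the smallest p-value of the 10 genes (adjusted p = 2.29e-08, edgeR). Variation among the ADRA2A libraries was 17.8%, above the 8.26% that counting gives. In bulk RNA, fewer cells that express a gene and less RNA per cell cannot be told apart.

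LOXL3 (ENSG00000115318.12; chromosome 2, 74532258 to 74555690, minus strand) is of the same structural group as LOXL2. It had 3.10, 2.51, 2.90 and 2.55 CPM with the empty vector and 2.08, 2.31, 1.26 and 1.64 CPM with ADRA2A. The groups did not overlap, but the gap between the lowest empty-vector and the highest ADRA2A library was small. It fell from 2.77 ± 0.285 to 1.82 ± 0.465 CPM (SD, n = 4 each). The difference was -0.61 in log2 units, with an SE of 0.23 (adjusted p = 0.0360, edgeR). DESeq2 gave an adjusted p of 0.0501. With edgeR it was 0.0945 without empty-vector replicate 1, 0.0745 without empty-vector replicate 3, 0.128 without ADRA2A replicate 3 and 0.0811 without ADRA2A replicate 4.

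LOXL1 (ENSG00000129038.16; chromosome 15, 73925989 to 73952137, plus strand), the family member best known for elastic fibres, had 4.04, 5.63, 5.23 and 4.97 CPM with the empty vector and 5.05, 5.35, 5.50 and 4.43 CPM with ADRA2A. The groups overlapped throughout. In log2 units the difference was 0.04 with an SE of 0.15 and a 95% interval from -0.27 to 0.34 (adjusted p = 0.867, edgeR). The sign turned without empty-vector replicate 1 (-0.05) and without ADRA2A replicate 3 (-0.01). As a percentage the interval ran from -17.1% to 26.9%, which does not reach the size seen for LOX or LOXL2. The antisense gene LOXL1-AS1, which overlaps it, had a log2 fold change of 0.35 (edgeR adjusted p = 0.0111), and the use of strand in counting is not given in the sources used here.

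LOXL4 (ENSG00000138131.4; chromosome 10, 98247690 to 98268194, minus strand) was the other abundant lysyl oxidase. It had 14.7, 12.96, 15.4 and 13.02 CPM with the empty vector and 15.4, 16.1, 15.7 and 17.01 CPM with ADRA2A. The groups touched, since empty-vector replicate 3 lay just above ADRA2A replicate 1. The difference of 0.19 in log2 units (SE 0.08, 95% interval 0.02 to 0.37) did not pass after adjustment (adjusted p = 0.0734, edgeR). Without empty-vector replicate 3 the adjusted p was 0.0407.

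**Figure D2:**
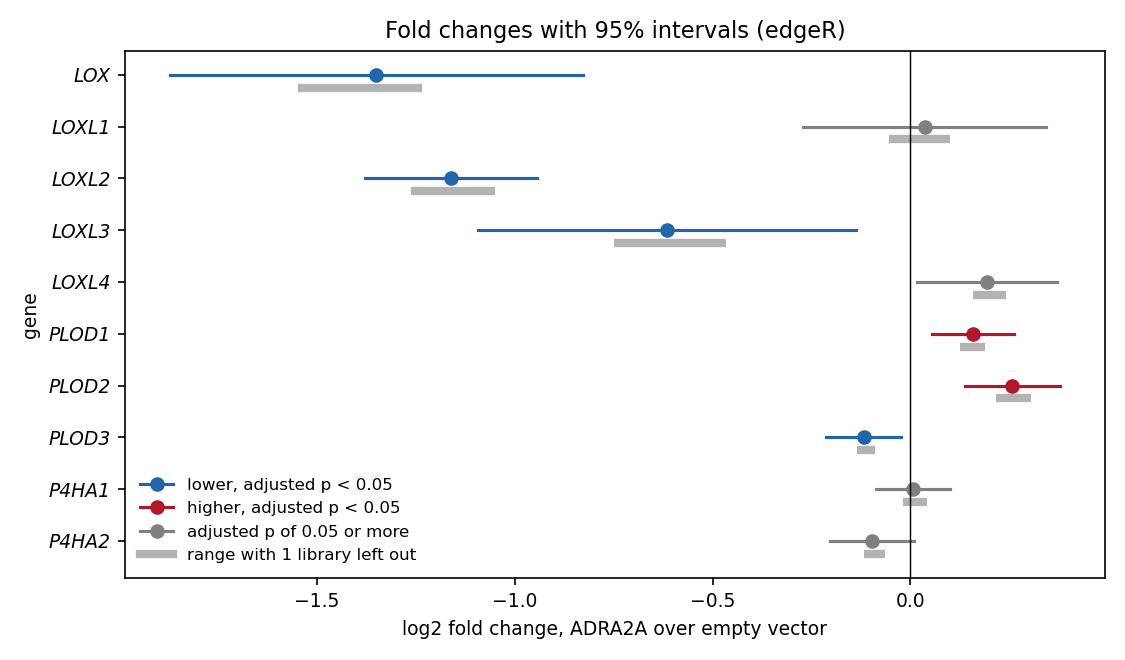
Log2 fold change of each gene, ADRA2A over empty vector, with its 95% interval from the edgeR fit (thin line) and the range when 1 of the 8 libraries was omitted (grey bar). LOX and LOXL2 lie beyond -1, LOXL3 between them and 0, and the intervals of LOXL1, P4HA1 and P4HA2 include 0, while that of LOXL4 lies above 0 although its adjusted p is 0.0734.

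Levels of different genes were compared per length, as TPM (transcript abundance scaled to library size) computed from the merged exon length of each gene. In the empty-vector cells P4HA1 was the highest at 173 ± 8.97, followed by PLOD1 at 53.5 ± 2.27 and PLOD3 at 50.03 ± 2.05, P4HA2 at 19.3 ± 0.979, PLOD2 at 15.7 ± 1.29, LOXL4 at 15.5 ± 1.33, LOXL2 at 13.9 ± 0.396, LOXL1 at 5.44 ± 0.693, LOXL3 at 2.44 ± 0.259 and LOX at 2.06 ± 0.232 TPM (SD, n = 4 each). The ranges of PLOD1 and PLOD3 overlapped, as did those of PLOD2, LOXL4 and LOXL2 as neighbours in that order, and those of LOXL3 and LOX. In the ADRA2A cells the means were 175 TPM for P4HA1, 59.9 for PLOD1, 46.3 for PLOD3, 18.9 for PLOD2, 18.1 for P4HA2, 17.9 for LOXL4, 6.20 for LOXL2, 5.58 for LOXL1, 1.61 for LOXL3 and 0.803 for LOX. On this scale LOXL4 ranged from 14.2 to 16.9 TPM with the empty vector and from 17.3 to 19.0 TPM with ADRA2A, so its groups, which touch in CPM, lie apart. The order of genes depends on the length used. With the longest annotated transcript of each gene LOXL2 stood above LOXL4, at 16.2 ± 0.470 against 11.3 ± 0.968, and PLOD3 above PLOD1, at 73.1 ± 3.02 against 69.5 ± 2.89.

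The make-up of the lysyl oxidase family differed between the groups. LOXL2 supplied 35.3% ± 1.25 of the family's per-length total with the empty vector and 19.3% ± 2.99 with ADRA2A (SD, n = 4 each). LOXL4 supplied 39.5% ± 2.58 and then 55.8% ± 4.04. In the ADRA2A cells LOXL4 was ahead of LOXL2 by either length, at 47.1% against 26.2% with the longest transcript. LOX went from 5.25% ± 0.701 to 2.49% ± 0.689. LOXL1 went from 13.8% ± 1.79 to 17.4% ± 1.05, although its level in CPM overlapped between the groups. For each of these 4 genes the shares of the groups did not overlap. Shares of a family sum to a fixed total, so a lower share of LOXL2 and LOX raises those of the others. The family's total went from between 38.2 and 40.9 to between 30.7 and 32.9 TPM, with no overlap, a ratio of means of 0.815. The totals of the lysyl hydroxylases (119 ± 4.12 and 125 ± 2.23) and of the prolyl 4-hydroxylase alpha subunits (193 ± 9.93 and 193 ± 6.68) overlapped between the groups. These totals are descriptions and were not tested.

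**Figure D3:**
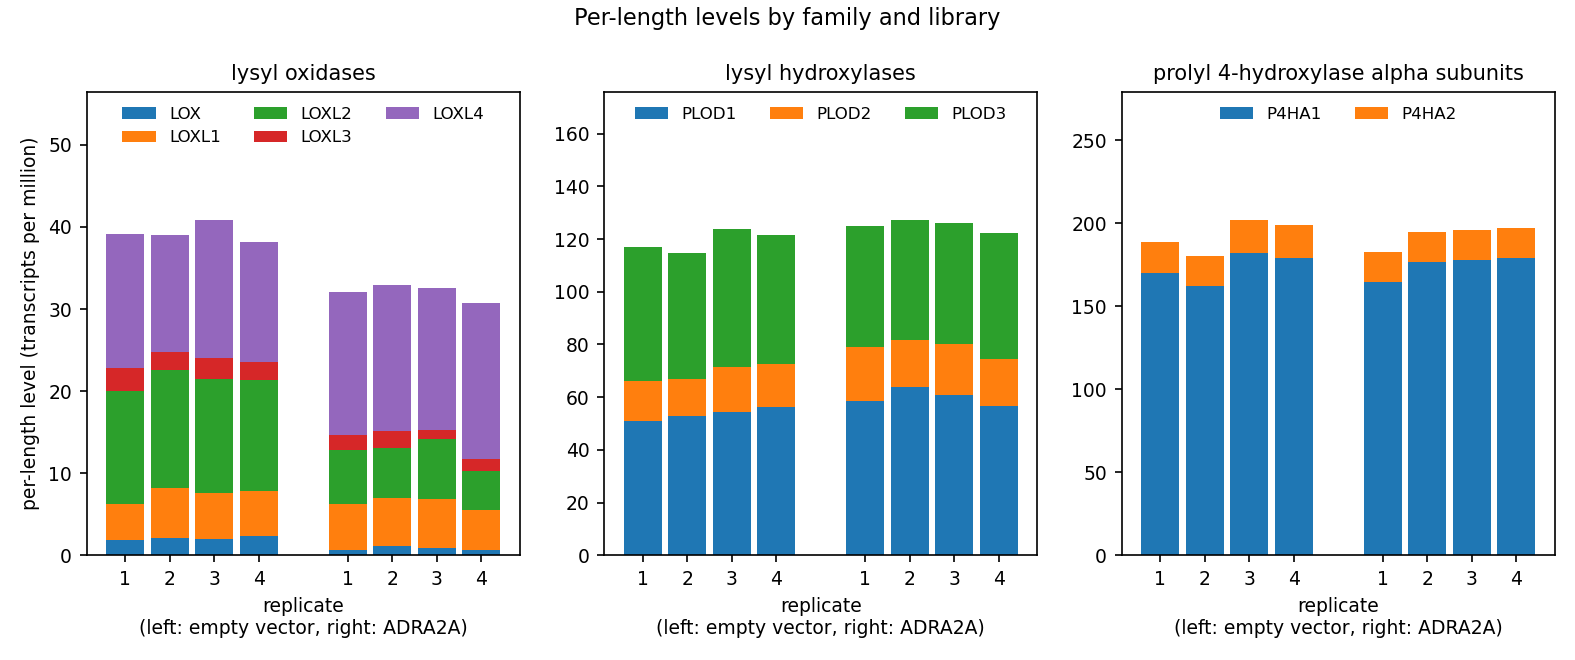
Per-length level (TPM, merged exon length) of each gene in each library, stacked by family; the 4 left bars of a panel are empty-vector and the 4 right bars ADRA2A replicates 1 to 4. The LOXL2 and LOX segments are shorter in the ADRA2A libraries, where LOXL4 makes up 55.8% of the family on average, while the summed heights of the other families overlap between the groups.

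LOXL2 and LOX both fell, by amounts that could not be told apart. The log2 ratio of LOXL2 to LOX counts within a library was 2.84 ± 0.174 with the empty vector and 3.04 ± 0.411 with ADRA2A (SD, n = 4 each), a difference of 0.20 that lay within the spread (exact two-sided permutation test, p = 0.429; adjusted over the 3 ratios tested, 0.429). The smallest p this design allows is 0.0286 before adjustment. Adjusted over the 3 ratios, a single ratio at that p still misses the threshold. These tests therefore could not detect a shift confined to a single ratio. A test that misses the threshold does not show that the falls were equal.

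Among the lysyl hydroxylases, PLOD2 (ENSG00000152952.12; chromosome 3, 146035139 to 146163725, minus strand) rose the most. It had 55.0, 52.1, 62.6 and 59.4 CPM with the empty vector and 73.0, 65.3, 70.9 and 65.1 CPM with ADRA2A. All ADRA2A libraries lay above all empty-vector libraries, with empty-vector replicate 3 the closest. Means were 57.3 ± 4.65 and 68.6 ± 3.99 CPM (SD, n = 4 each). The rise was 0.26 on the log2 scale with an SE of 0.06 (adjusted p = 0.00121, edgeR), and it was called in all 8 fits that lacked a library.

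PLOD1 (ENSG00000083444.17; chromosome 1, 11934205 to 11975538, plus strand), which hydroxylates lysines within the helix, had 67.2, 71.2, 73.4 and 74.1 CPM with the empty vector and 77.0, 85.4, 81.7 and 74.8 CPM with ADRA2A. The groups were separated only by the gap between empty-vector replicate 4 and ADRA2A replicate 4. The rise was 0.16 on the log2 scale with an SE of 0.05 (adjusted p = 0.0142, edgeR). This p was 0.0603 without empty-vector replicate 1 and 0.0575 without ADRA2A replicate 2.

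PLOD3 (ENSG00000106397.12; chromosome 7, 101205977 to 101218420, minus strand) had 71.9, 69.0, 75.5 and 68.7 CPM with the empty vector and 63.9, 65.4, 66.0 and 67.3 CPM with ADRA2A. The groups did not overlap, but they lay close together. The difference of -0.12 in log2 units (SE 0.05; adjusted p = 0.0408, edgeR) had an adjusted p of 0.0646 with DESeq2 and 0.0748 with no filter on low counts. With edgeR it rose to 0.0817 without empty-vector replicate 1, 0.138 without empty-vector replicate 3, 0.110 without ADRA2A replicate 1, 0.0788 without ADRA2A replicate 2 and 0.0657 without ADRA2A replicate 3. The log2 ratio of PLOD2 to PLOD1 went from -0.32 ± 0.0931 to -0.22 ± 0.127 (SD, n = 4 each) and overlapped between the groups (exact two-sided permutation test, p = 0.229; adjusted 0.343).

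The alpha subunits of prolyl 4-hydroxylase did not pass the test. P4HA1 (ENSG00000122884.12; chromosome 10, 73007217 to 73096974, minus strand), the most abundant of the 10 genes, had 131, 127, 143 and 138 CPM with the empty vector and 125, 138, 139 and 138 CPM with ADRA2A. Its groups interleaved. The difference was 0.01 in log2 units with an SE of 0.04 (adjusted p = 0.937, edgeR), and the 95% interval ran from -0.09 to 0.10, or from -5.91% to 7.09%. The sign of so small a value turned with upper quartile scaling (-0.01) and in 5 of the 8 fits without 1 library, down to -0.02.

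P4HA2 (ENSG00000072682.18; chromosome 5, 132190147 to 132295315, minus strand) had 47.1, 47.0, 52.5 and 49.8 CPM with the empty vector and 45.9, 45.9, 46.7 and 45.3 CPM with ADRA2A. Its groups did not overlap, as was so for 7 of the 10 genes and for 39.2% of all genes tested. The difference was small, -0.10 in log2 units with an SE of 0.05 (adjusted p = 0.132, edgeR). The log2 ratio of P4HA2 to P4HA1 went from -1.45 ± 0.0168 to -1.55 ± 0.0709 (SD, n = 4 each; exact two-sided permutation test, p = 0.0857; adjusted 0.257).

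Several of the genes overlap others in the annotation. LOX shares its locus with SRFBP1 on the opposite strand (log2 fold change -0.04, edgeR adjusted p = 0.743), and LOXL3 with DOK1 and HTRA2 on the opposite strand (0.02 and -0.19, edgeR adjusted p = 0.890 and 0.0558). LOXL2 overlaps ENTPD4 on the same strand, which was higher with ADRA2A (0.20, edgeR adjusted p = 0.0139). None of these 4 was called lower, as LOX, LOXL2 and LOXL3 were, but such calls cannot show how shared reads were divided. The part of reads shared with overlapping genes was not tested. P4HA2 overlaps PDLIM4 on the opposite strand, which was higher (0.22, edgeR adjusted p = 0.0473).

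Tested genes next to each member on its chromosome were examined, 10 on each side. Around LOX their median log2 fold change was -0.02, and 19 of the 20 had a higher value than LOX, the exception being PRR16 (-2.33). Around LOXL2 the median was -0.02 and all 20 had a higher value than LOXL2. LOXL3 was lower than 18 of its 20 neighbours, whose median was 0.03, the exceptions being EVA1A (-1.08) and LRRTM1 (-1.78). These 3 genes lay below the medians of their neighbours. Of all genes tested, 1.31% had a lower value than LOX, 1.72% than LOXL2 and 4.83% than LOXL3. Few of any 20 genes would thus lie below them, so the ranks add little to the sizes of the falls.

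PLOD1 and PLOD2 lay close to the medians of their own neighbours. Of the 20 genes around PLOD1, 19 were higher in the ADRA2A cells and 16 passed the test as higher, with a median log2 fold change of 0.24 against 0.16 for PLOD1 itself. Around PLOD2, 17 of 20 were higher and 14 passed as higher, with a median of 0.35 against 0.26 for PLOD2. Each of the 2 genes was thus slightly below the median of its own stretch, which spans 4.29 Mb on chromosome 1 and 7.22 Mb on chromosome 3. With 5 genes on each side the medians were 0.24 and 0.35. The part of these stretches in the rise of PLOD1 and PLOD2 was not tested. Around P4HA2 the median was 0.15 and 18 of 20 genes had a higher value than P4HA2.

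**Figure D4:**
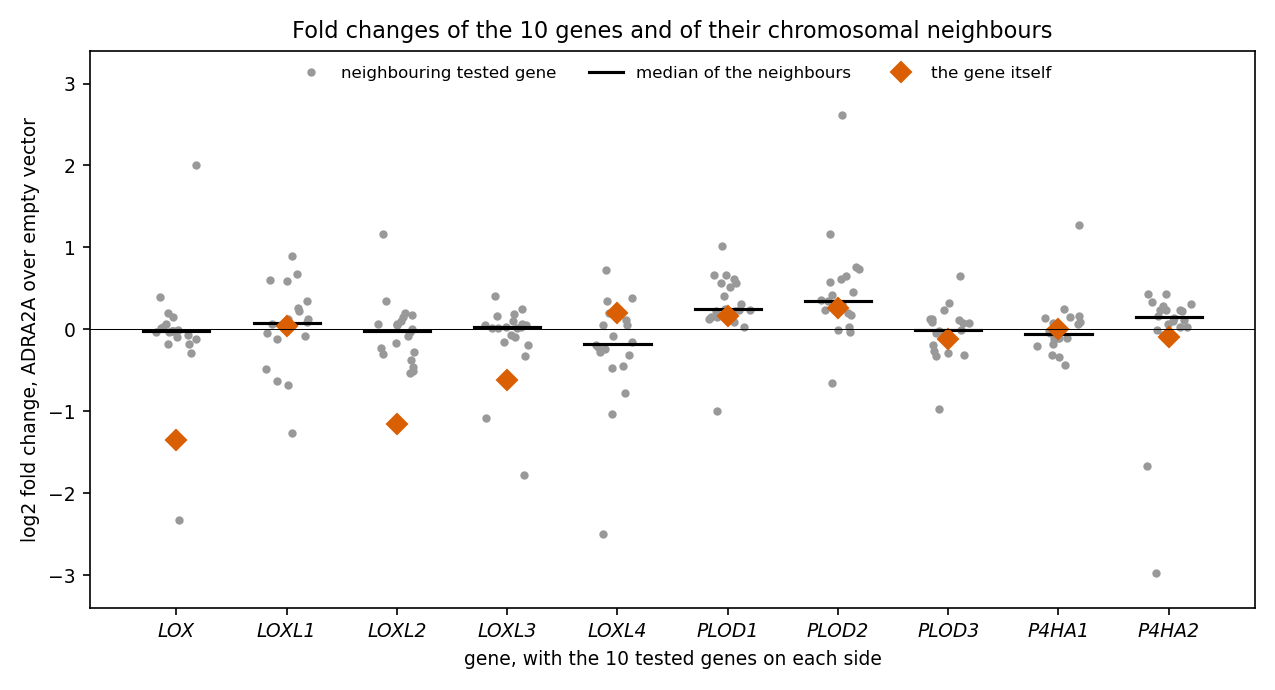
Log2 fold change (ADRA2A over empty vector) of each gene (orange diamond), of the 10 tested genes on each side of it (grey points) and their median (black line). LOX and LOXL2 lie far below their neighbours' medians of -0.02, whereas PLOD1 and PLOD2 lie just under medians of 0.24 and 0.35.

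The other genes of collagen maturation were read from 5 hand-written lists. At the background rate about 42.7% of the members of any list would be called, 21.6% as higher and 21.1% as lower. Among 19 further genes for collagen hydroxylation and folding, 16 were tested, with 7 higher, 3 lower and a median log2 fold change of 0.09. CREB3L1, a transcription factor that drives secretory and collagen genes, rose from 7.79 ± 0.927 CPM with the empty vector to 12.1 ± 0.707 CPM with ADRA2A (SD, n = 4 each; adjusted p = 5.32e-05, edgeR). The prolyl isomerase genes FKBP7 and FKBP14 went opposite ways (log2 fold changes 0.34 and -0.34, edgeR adjusted p = 0.0401 and 0.0141). COLGALT1, which adds galactose to hydroxylysine, was at -0.12 (adjusted p = 0.0236). P4HB, the partner of both alpha subunits, was at 845 and 844 CPM (log2 fold change 0.00, adjusted p = 0.983).

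Of 16 genes for procollagen export and trimming, 12 were tested, with 4 higher, 2 lower and a median of 0.08. The export genes MIA2 and SEC24D rose (log2 fold changes 0.36 and 0.35, edgeR adjusted p = 5.73e-07 and 1.31e-05). ADAMTS3, a procollagen N-propeptidase, fell by 0.54 on the log2 scale (adjusted p = 5.44e-05), and PCOLCE2, which enhances C-propeptide removal, fell by 0.66 (adjusted p = 0.0437). PCOLCE2 is 1 of the 20 neighbours of PLOD2 and went against its stretch.

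All 13 genes for copper, iron and ascorbate supply were tested. They had a median of -0.01, with 2 higher and 2 lower. ATP7A, the pump that loads copper onto lysyl oxidases, was at 37.1 and 36.6 CPM (log2 fold change -0.02, edgeR adjusted p = 0.819). Its relative ATP7B rose from 1.03 ± 0.260 to 2.34 ± 0.344 CPM (SD, n = 4 each; adjusted p = 0.00118), and the ascorbate transporter SLC23A1 from 1.45 ± 0.0973 to 2.69 ± 0.322 CPM (adjusted p = 0.00280), both at low abundance. The iron genes FTL and TFRC fell by 0.34 and 0.17 on the log2 scale (adjusted p = 5.18e-08 and 0.000545), with FTL uncertain because it has near-identical pseudogenes.

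The substrates moved the most. Of 19 collagen and elastin genes 12 were tested, with 7 lower, 3 higher and a median of -0.67. COL1A1, the main chain of fibrillar collagen I, fell from 78.4 ± 1.93 to 23.9 ± 1.22 CPM (SD, n = 4 each; edgeR adjusted p = 3.41e-15). Its partner chain COL1A2 had at most 12 counts in a library. The basement membrane chain gene COL4A6 fell from 4.27 ± 0.921 to 0.566 ± 0.265 CPM (adjusted p = 1.23e-07). Substrates that rose were COL27A1 (log2 fold change 1.53, adjusted p = 4.22e-05), COL17A1 (1.19, adjusted p = 6.09e-14) and ELN, the elastin gene (2.05, adjusted p = 0.00143), the last from between 0 and 0.581 CPM to between 0.692 and 1.72 CPM.

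All 27 genes for oxygen sensing and hypoxia response were tested, with 13 lower, 1 higher and a median of -0.15. ANKRD37 and PPFIA4 had the lowest values (log2 fold changes -0.69 and -0.66, edgeR adjusted p = 0.0221 and 0.0258). Both were at low abundance, with 19 to 43 and 19 to 47 counts per library. Of more abundant genes, BNIP3 and PGK1 fell (-0.62 and -0.43, adjusted p = 1.27e-08 and 6.44e-08), while SLC2A1 and ENO1 did not pass (0.04 and -0.08). The glycolytic regulator PFKFB3 was the gene that rose (0.16, adjusted p = 0.00943). The prolyl hydroxylase genes EGLN1 and EGLN3, whose products mark hypoxia-inducible factors for destruction, did not pass (0.02 and -0.05), while EGLN2 fell by 0.31. Of the genes of the factors themselves, EPAS1 and HIF1A were called lower (-0.41 and -0.07, edgeR adjusted p = 2.62e-07 and 0.0468). ARNT did not pass (0.10, adjusted p = 0.133). Of the hypoxia targets among the 10 genes, LOX and LOXL2 fell, PLOD2 rose and P4HA1 and P4HA2 did not pass.

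**Figure D5:**
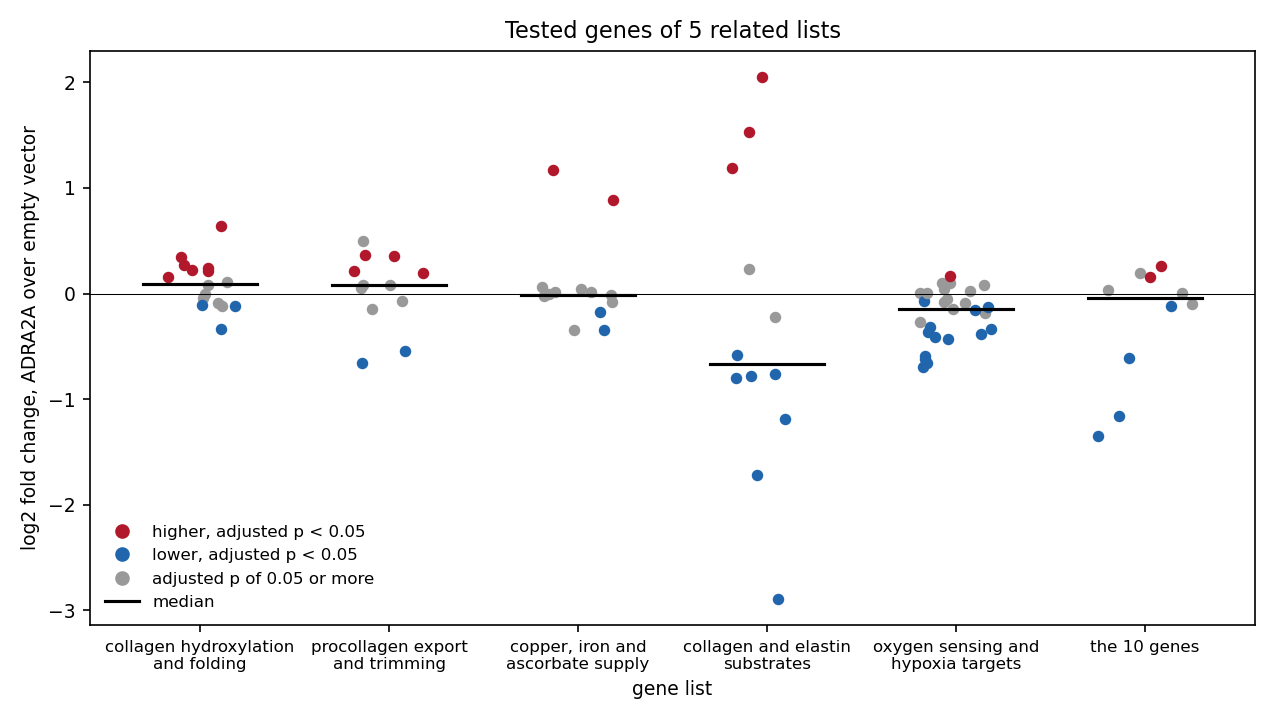
Log2 fold change (ADRA2A over empty vector) of each tested gene of the 5 lists and of the 10 genes; red points were called higher, blue points lower and grey points did not pass, and black lines are medians. The substrate list has the lowest median, -0.67, and the copper, iron and ascorbate list lies around 0 with a median of -0.01.

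Among 10160 tested genes with a mean of at least 10 CPM, 3 had the profile over the 8 libraries closest to that of LOXL2, by root mean square difference of mean-centred log2 CPM. These were ZNF488 (difference 0.113), GPRC5B (0.116) and CALB2 (0.135), against a spread of 0.609 for LOXL2's own profile. ZNF488 went from 20.7 ± 0.778 to 8.495 ± 1.05 CPM, GPRC5B from 31.0 ± 1.31 to 12.9 ± 0.938 CPM, and CALB2 from 39.0 ± 2.67 to 17.6 ± 1.47 CPM (SD, n = 4 each). Their direction follows from how they were picked and is a description only.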

How the data were processed

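RNA from 8 CFPAC-1 libraries (4 empty vector, 4 ADRA2A) was analysed. The deposited table holds RSEM estimated counts per gene, not scaled between libraries; cutadapt, STAR, RSEM, DESeq2 and the build hg38 are named per the submitters' processing notes, without versions. Annotation release, strand use and read length are not given in the sources used here. Groups and replicate numbers came from sample titles. The estimated counts were rounded, filtered with filterByExpr (14785 genes kept), scaled by TMM (factors 0.9938 to 1.0055) and tested with edgeR 4.0.16 (glmQLFit, glmQLFTest; R 4.3.3) on all 8 libraries with no covariate besides group. P-values were adjusted by Benjamini-Hochberg across the genes tested (threshold 0.05). SE is the absolute log2 fold change divided by the square root of F. CPM use the counts of tested genes as library size. Positions and lengths came from GENCODE 44 (GRCh38; 58517 of 58870 genes matched), the same major build as hg38. Ratios used a prior of 0.5 counts. Fits were tested on simulated data. DESeq2 1.42.0 and limma 3.58.1 (voom) were alternatives. All 10 members are named, with 4 genes per list: the 2 highest and 2 lowest called, or fewer where a direction had fewer. Any further gene was picked with its values in view. The members and lists were chosen with earlier results of these data known. Replicate numbers were not treated as pairs, because the labels give no batch. Same-numbered libraries did not deviate together either.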

Additional observations from a re-analysis of the deposited data

Results flagged for a closer look

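P4HA1 in ADRA2A replicate 1 stood apart from the other ADRA2A libraries. It had 125.3 CPM there, against 137.8 to 139.1 CPM in the other 3, a gap that makes up 0.905 of the group's range (above Dixon's 95% critical value for 4 samples). Among the 26 groups of 4 values examined this was the only such gap, and chance flags about 1 in 20. Without that library the log2 fold change of P4HA1 was 0.04 (edgeR adjusted p = 0.511). The log2 ratio of P4HA2 to P4HA1 then no longer overlapped, at -1.47 to -1.44 with the empty vector and -1.61 to -1.57 with ADRA2A. Its exact two-sided permutation p was 0.0286, the smallest possible, or 0.0857 after adjustment. The omitted library was picked for its low P4HA1, which enters this ratio, so the separation follows in part from that choice. The log2 ratio of PLOD2 to PLOD1 likewise did not overlap without ADRA2A replicate 2 (exact two-sided permutation test, p = 0.0571, adjusted 0.0857).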

How the results depend on the processing

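LOX, LOXL2 and PLOD2 kept their direction and call in every fit that tested them; LOX and LOXL3 were not tested at a mean of at least 50 counts, by construction. With 1 library left out, the count of all genes called lay between 5703 and 6042 (6314 with all libraries; 2916 to 3061 higher, 2787 to 2981 lower), that of members between 3 and 6 (1 to 3 higher, 2 to 4 lower).
The log2 fold change of LOXL1 then ranged from -0.054 to 0.0993 and that of P4HA1 from -0.020 to 0.0408, and upper quartile scaling gave -0.0114 for P4HA1; the cause was not tested. Members called lower numbered 2 with DESeq2 and 2 at a mean of at least 50 counts, against 4. The export and trimming list had 1 lower gene under each of these settings, against 2. The copper, iron and ascorbate list had 2 called at a mean of 50 counts, 0 of them higher, because ATP7B and SLC23A1 are not tested there. With the longest transcript as length, family shares in empty-vector and ADRA2A cells moved for LOX (4.53% with the empty vector), LOXL1 (19.2% with ADRA2A), LOXL2 (44.4% and 26.2%), LOXL4 (30.9% and 47.1%), PLOD1 (40.7% and 43.4%), PLOD2 (16.5% and 18.9%), P4HA1 (81.4% and 82.5%) and P4HA2 (18.6% and 17.5%), since merged exons lengthen genes with many transcripts. With 5 neighbours on each side the median log2 fold change was 0.285 around LOXL1, -0.011 around LOXL4, 0.033 around PLOD3 and 0.010 around P4HA1.
With the replicate number as a block the same 6 members were called. Correlations of same-numbered libraries' deviations lay between -0.042 and 0.070. The block, tested by sign-flips of same-numbered differences, gave 0.10 (PLOD2 to PLOD1), -0.10 (P4HA2 to P4HA1) and 0.20 (LOXL2 to LOX), and its smallest possible p is 0.125. Depth limits LOX and LOXL3 most, at 12 to 53 counts per library.
With 1 library left out these differences ranged from 0.06 to 0.16, from -0.13 to -0.08 and from 0.04 to 0.37.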
